A study of Mus musculus with 8 samples.

Results

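The genes described here encode the cytoplasmic plaque of the desmosome and the scaffold on which the cornified envelope is built: Jup (plakoglobin), Pkp1, Pkp2 and Pkp3 (plakophilins 1 to 3), Dsp (desmoplakin), Ppl (periplakin), Evpl (envoplakin) and Perp, a tetraspan membrane protein of the junction. They were chosen by name, as the 8 of 55416 genes in the deposited count table whose Ensembl identifiers carry these symbols in the mouse GENCODE annotation, and all 8 were among the 13147 genes that passed the filter on low counts. RNA-seq was done on epidermis from the back skin of mice at postnatal day 4, with 4 libraries labelled as wild type (control) and 4 labelled RoraEKO. RoraEKO mice carried Rora flox/flox alleles and a KRT14-cre (K14-Cre) transgene on the B6N.Cg line, so that Rora, which encodes the nuclear receptor RORα, is deleted where the keratin 14 promoter is or was active, in basal keratinocytes and the cells that come from them, those of the hair follicle included. Controls were littermates, and the sources used here do not say which of the flox or Cre alleles they carried. The skin was heated for a short time and the epidermis was then peeled off whole, so that a library can hold every epidermal layer and any follicles that came away.

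Desmosomes hold keratinocytes together by tying their keratin filaments to one another across the cell membrane. Desmosomal cadherins reach across the gap, the armadillo proteins plakoglobin and plakophilin bind the cadherin tails, and desmoplakin, a plakin, links this plaque to keratin. Envoplakin and periplakin are plakins that form a complex at desmosomes and along the inner face of the membrane. In the upper layers transglutaminases cross-link them early into the cornified envelope, the protein shell of the dead cells of the stratum corneum that forms the skin barrier.

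Rora itself had counts per 1000000 counts (CPM, scaled with TMM factors) of 158, 193, 187 and 309 in control libraries A1, B1, C1 and C6, and of 154, 189, 237 and 206 in the libraries labelled RoraEKO A3, B4, C2 and C3. The genotypes overlapped, and the log2 fold change was -0.11 (adjusted p = 0.877, edgeR quasi-likelihood test). A count over the whole gene takes reads from every exon, so it does not show whether the floxed part was lost, and the genotypes below rest on the labels alone. Library totals ran from 17286903 to 26705533 counts. Xist was at 416 and 527 CPM in control C1 and C6 and at 0.0546 CPM or below in the other 6 libraries, and Ddx3y, a Y-linked gene, was at 0 CPM in C1 and C6 and at 15.7 to 24.1 CPM in the others, so that controls held both patterns and the RoraEKO libraries only the male one. The spinous keratins Krt1 and Krt10 made up 3.65% to 6.71% of counts in controls and 7.3% to 10.6% in libraries labelled RoraEKO, and the basal keratins Krt5 and Krt14 reached at most 371 and 706 CPM in any library, respectively. The other 3 spinous markers overlapped between genotypes, with log2 fold changes of -0.34 for Krtdap, -0.04 for Sbsn and -0.16 for Dmkn, so that the median of the 5 was -0.04. The defining markers of dermal fibroblasts, endothelial cells and skeletal muscle summed to at most 10.4, 4.58 and 3.64 CPM in any library. The 5 erythroid markers summed to 47.8 to 334 CPM in controls and 125 to 1041 CPM in libraries labelled RoraEKO, with a median log2 fold change of 1.94, and the 5 melanocyte markers to 25.2 to 56.2 and 17.3 to 33.2 CPM, with a median of -0.84. None of these 10 genes was called, and their part in the values below was not tested.

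None of the 8 genes passed the test in either direction. With cutoffs of 0.05 on the adjusted p and 1.5-fold on the change, the edgeR quasi-likelihood test called 0 of the 8 higher and 0 of the 8 lower in the libraries labelled RoraEKO, against 2.30% of all tested genes called higher and 3.22% called lower. At an unadjusted p under 0.05, this test passed 0 of the 8, its edgeR 4 form 0, limma-voom 1 and DESeq2 3, where each tool passed between 18.2% and 18.6% of all genes. No tool called any of the 8, and dropping the fold change cutoff added none. The fitted log2 fold change was above 0 for 7 of the 8, compared with 43.9% of all genes, and the median was 0.26 beside -0.04 for all genes. In 1 of the 8, Jup, every library labelled RoraEKO lay above every control library, a pattern found in 5.40% of all genes, and in none did they all lie below, as they did in 7.54% of all genes. RoraEKO B4, the highest library for 7 of the 8 genes, also stood apart in its basal keratins. It held 706 CPM of Krt14 and 371 CPM of Krt5, against at most 203 and 263 CPM in any other library. Of the other 4 basal markers, its Krt15, at 55.4 CPM, was the lowest of the 8 libraries. Its Col17a1, Itga6 and Itgb4, at 52.1, 5.88 and 7.73 CPM, were close to or below the highest control (53.6, 5.87 and 9.93 CPM). Within its genotype these 3 stood apart, against at most 15.1, 2.94 and 4.31 CPM in the other RoraEKO libraries. The basal markers summed to 1198 CPM in B4 and to at most 596 CPM in any other library. Without B4 the median log2 fold change of the 7 genes that still passed the filter was 0.20, with 7 of 7 above 0, and none was called. The part of the basal markers in the values was not tested. In bulk tissue a lower or higher value cannot tell fewer or more cells of a type apart from less or more RNA per cell.

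**Figure D1:**
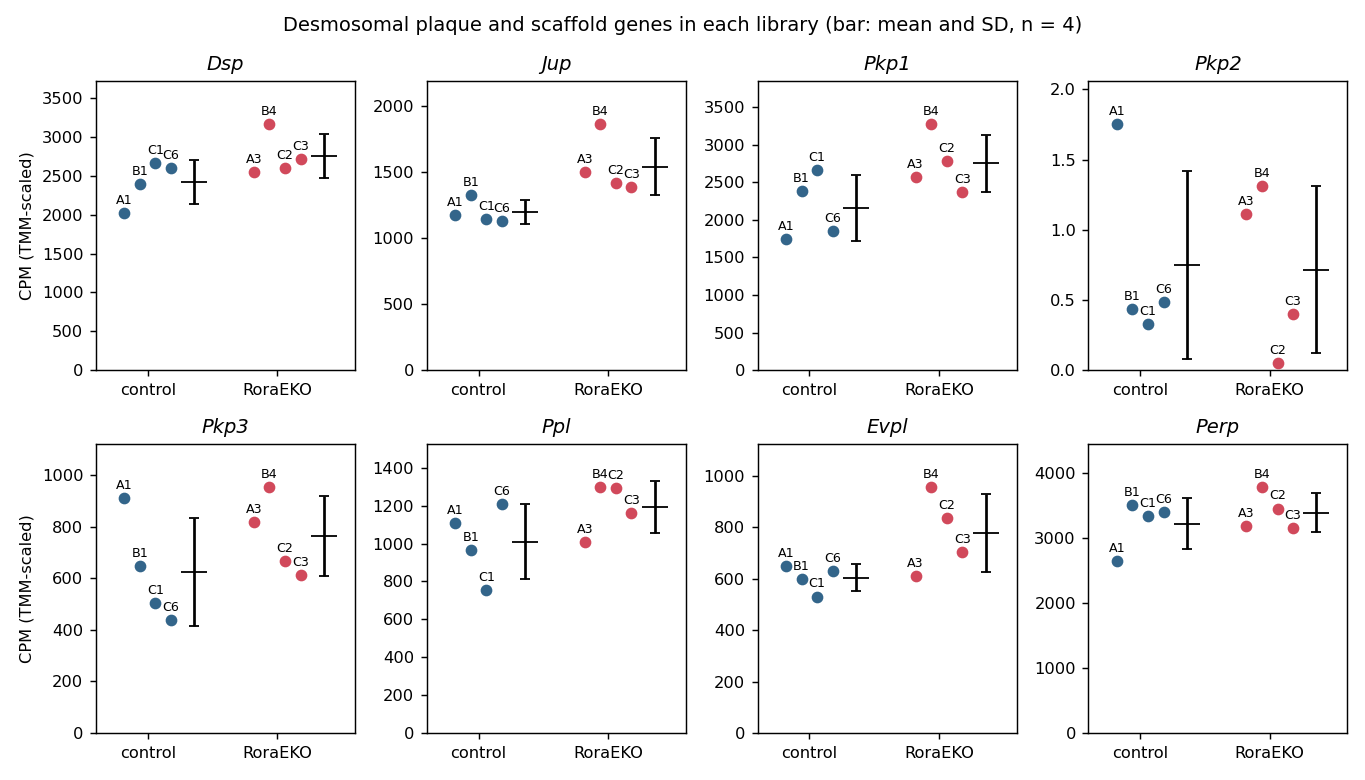
CPM (TMM-scaled) of each gene in the 4 control (blue) and 4 RoraEKO (red) libraries, each axis starting at 0, with the library names beside the points and the mean and SD of each genotype (n = 4) as a bar. The genotypes overlap for every gene except Jup, RoraEKO B4 is the highest library for 7 of the 8 genes, and Pkp2 stays at or below 1.75 CPM.

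Jup (ENSMUSG00000001552, chromosome 11, 100259784 to 100291103 of GRCm39, minus strand, 14 exons in the canonical transcript) encodes plakoglobin, which binds the tails of both desmosomal and classical cadherins. Jup was at 1178, 1329, 1146 and 1131 CPM in control A1, B1, C1 and C6. In the libraries labelled RoraEKO A3, B4, C2 and C3 it was at 1498, 1860, 1419 and 1386 CPM. All 4 RoraEKO libraries exceeded the highest control, B1, by as little as the step from 1329 to 1386 CPM, and B4 stood well above the rest. The means were 1196 ± 91.1 and 1541 ± 218 CPM (SD, n = 4), a log2 fold change of 0.37 (SE 0.11, adjusted p = 0.277, edgeR quasi-likelihood test). The 95% limma-voom interval for the log2 difference ran from 0.01 to 0.69. Scaled by library size alone, the genotypes overlapped, since control B1 was then at 1373 and RoraEKO A3 and C2 at 1328 and 1280 CPM on that scale. The lowest adjusted p that any alternative gave for Jup was 0.0529, with DESeq2. The summed level of the spinous markers, which Krt1 and Krt10 dominate, did not overlap either, at 48672 to 74381 CPM in controls and 89216 to 111161 CPM in RoraEKO libraries, although only those 2 of its 5 genes were above 0 in log2 fold change. Its part in the Jup values was not tested.

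Pkp1 (ENSMUSG00000026413, chromosome 1, 135799133 to 135846945, minus strand) encodes the plakophilin of the differentiated layers, which draws desmoplakin to the membrane. Control levels were 1741, 2382, 2658 and 1852 CPM, in the same library order. The levels in the libraries labelled RoraEKO were 2576, 3270, 2781 and 2376 CPM. Control A1 and C6 lay below all 4 of these, whereas B1 and C1 lay among them. The log2 fold change was 0.35 (SE 0.175, adjusted p = 0.435, edgeR quasi-likelihood test), and the limma-voom interval ran from -0.09 to 0.78.

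Pkp3 (ENSMUSG00000054065, chromosome 7, 140658040 to 140670423, plus strand) encodes a plakophilin found in all layers of the epidermis. It varied more between libraries than any other of the 8 except Pkp2, with a highest to lowest library ratio of 2.18. The controls held 910, 646, 506 and 437 CPM. The libraries labelled RoraEKO held 819, 954, 668 and 612 CPM. Control A1 was thus above 3 of the 4 RoraEKO libraries, and the log2 fold change was 0.29 (SE 0.273, adjusted p = 0.638, edgeR quasi-likelihood test). With Xist (log2 CPM) as a covariate it was -0.03, without the controls that express Xist 0.03, without control A1 0.53 and without RoraEKO B4 0.16. Hair follicle markers moved with Pkp3 in part. The summed CPM of 7 hair follicle and hair shaft markers was 32464, 15881, 4895 and 4209 in control A1, B1, C1 and C6, in the same order as Pkp3, and 21825, 19168, 8488 and 9012 in RoraEKO A3, B4, C2 and C3. RoraEKO A3 and B4, which had the higher marker sums of their genotype, also had the higher Pkp3 levels. Between A3 and B4, and between C2 and C3, the library with the higher sum had the lower Pkp3 level. In both genotypes the libraries named C had the lower sums and the lower Pkp3 levels, and both controls that express Xist are named C. Follicle content, name letter and, in controls, the Xist pattern thus cannot be told apart here. The part of follicle content in the Pkp3 values was not tested.

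**Figure D2:**
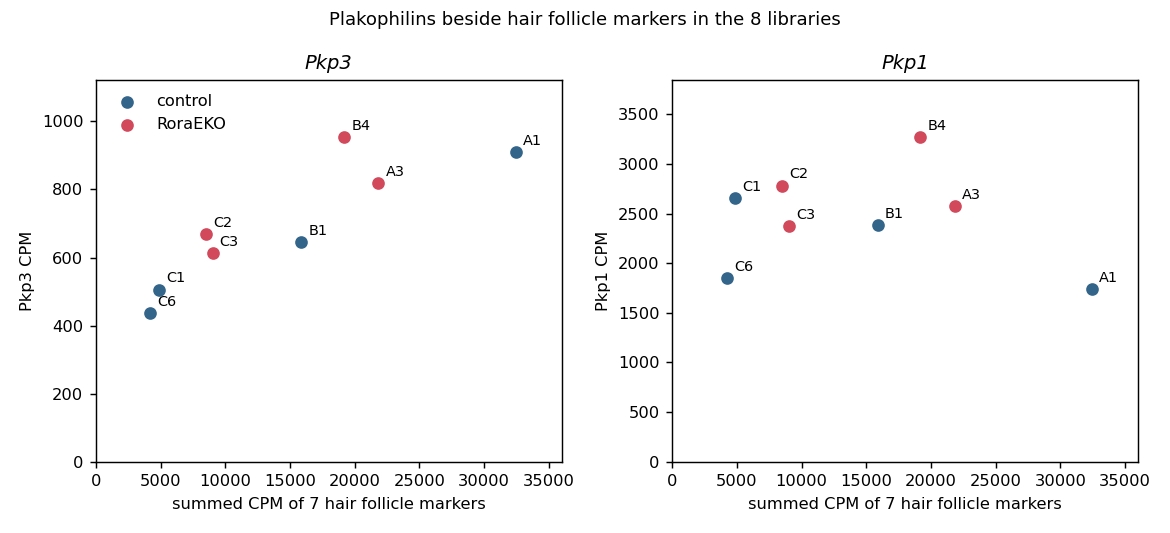
CPM of Pkp3 (left) and Pkp1 (right) on the y axis against the summed CPM of the 7 hair follicle markers on the x axis, 1 point per library (control blue, RoraEKO red). Pkp3 is highest in the libraries with the largest marker sums, whereas control A1, which has the largest sum at 32464 CPM, has the lowest Pkp1 level at 1741 CPM.

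Pkp2 (ENSMUSG00000041957, chromosome 16, 16031144 to 16090586, plus strand) encodes the plakophilin of the heart and of simple epithelia, and it was near the limit of detection in this epidermis. Its rounded counts were 46, 8, 7 and 13 in the controls and 17, 32, 1 and 8 in the libraries labelled RoraEKO, and a floor of 3 counts stands for 0.113 to 0.196 CPM. RoraEKO C2, at 0.0482 CPM, was under that floor, and control A1, at 1.75 CPM, was the highest of all. The log2 fold change was -0.09 (SE 0.898, adjusted p = 0.978, edgeR quasi-likelihood test). The limma-voom interval, from -2.51 to 1.55, allowed several-fold differences either way. Without RoraEKO C2 the log2 fold change was 0.38, and without C3 it was 0.11, so that no direction can be given.

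Dsp (ENSMUSG00000054889, chromosome 13, 38335230 to 38382553, plus strand, 24 exons) encodes desmoplakin, the obligate link between plaque and keratin. The control libraries held 2025, 2392, 2665 and 2602 CPM. Those labelled RoraEKO held 2548, 3162, 2599 and 2714 CPM. Control A1 was the lowest library and RoraEKO B4 the highest, with the other 6 between 2392 and 2714 CPM. The log2 fold change was 0.19 (SE 0.114, adjusted p = 0.679, edgeR quasi-likelihood test), and the limma-voom interval, -0.18 to 0.55, left out a change of 1.5-fold in either direction. The Dsp log2 fold change was 0.11 without control A1 or RoraEKO B4, 0.29 without RoraEKO C2, 0.32 with Xist as a covariate and 0.37 without the controls that express Xist.

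Ppl (ENSMUSG00000039457, chromosome 16, 4904155 to 4950377, minus strand) encodes periplakin. Control levels of Ppl were 1106, 968, 756 and 1210 CPM. The libraries labelled RoraEKO were at 1010, 1298, 1295 and 1163 CPM. Control C1 was the lowest library, and control C6 exceeded RoraEKO A3 and C3. The log2 fold change was 0.24 (SE 0.17, adjusted p = 0.588, edgeR quasi-likelihood test), with a limma-voom interval of -0.15 to 0.66. It was 0.12 without control C1, and 0.36 without control C6 or RoraEKO A3.

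Evpl (ENSMUSG00000034282, chromosome 11, 116111385 to 116128923, minus strand) encodes envoplakin, the partner of periplakin. In the controls Evpl lay close together at 651, 600, 531 and 631 CPM. It was more spread in the libraries labelled RoraEKO, at 611, 957, 837 and 705 CPM. RoraEKO B4, C2 and C3 were above every control, and A3 fell among them. The log2 fold change was 0.37 (SE 0.155, adjusted p = 0.311, edgeR quasi-likelihood test), and the limma-voom interval ran from -0.03 to 0.72. Without RoraEKO A3, the adjusted p of Evpl was 0.148, its lowest under any alternative.

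Perp (ENSMUSG00000019851, chromosome 10, 18720715 to 18732821, plus strand, 3 exons) encodes a tetraspan protein that desmosomes of stratified epithelia need and that p63 and p53 are known to induce. Its control values were 2644, 3503, 3333 and 3394 CPM. In the libraries labelled RoraEKO they were 3179, 3779, 3450 and 3146 CPM. Apart from control A1 at the low end and RoraEKO B4 at the high end, the libraries of the genotypes were interleaved. The log2 fold change was 0.07 (SE 0.111, adjusted p = 0.907, edgeR quasi-likelihood test), its limma-voom interval was -0.30 to 0.44, and without control A1 the log2 fold change was -0.01.

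**Figure D3:**
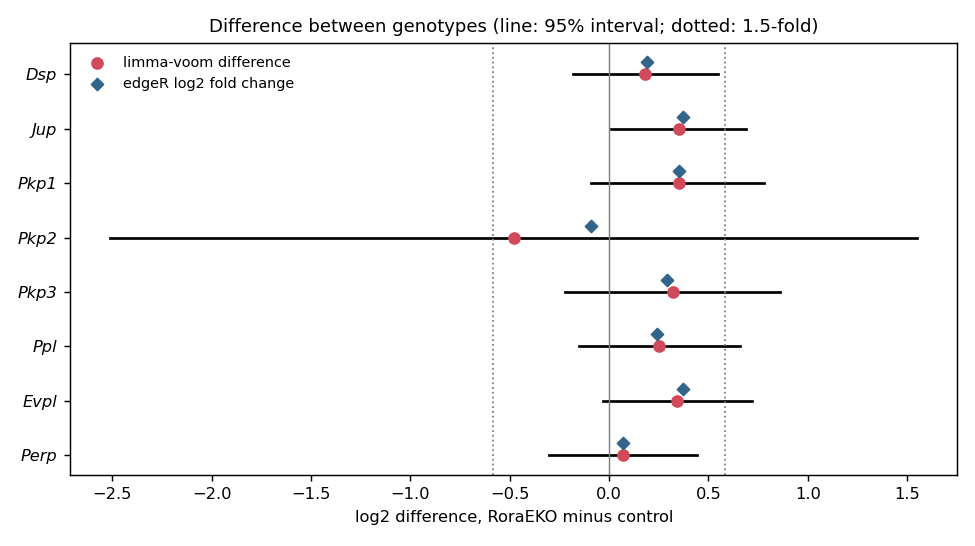
Log2 difference between genotypes (x axis, RoraEKO minus control) for each gene (y axis), as the edgeR log2 fold change (blue diamonds) and as the limma-voom difference (red points) with its 95% interval (lines). Dotted lines mark a 1.5-fold change, and only the interval of Jup, 0.01 to 0.69, lies above 0 throughout, while that of Pkp2 spans -2.51 to 1.55.

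The intervals set what these 8 libraries leave possible in a fit with no covariate. For 7 of the 8 genes the limma-voom interval left out a 1.5-fold fall, the exception being Pkp2. A 1.5-fold rise was left out for 2 only, Dsp and Perp, so that for Jup, Pkp1, Pkp3, Ppl and Evpl the interval included a rise of that size. These intervals are per gene and not adjusted over genes, and they do not take in the difference in Xist between the genotypes. The Dsp log2 fold change was 0.32 with Xist as a covariate and 0.37 without the controls that express Xist, and no interval was taken from those fits.

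The libraries fall into letters A, B and C by the first letter of their names, and the labels do not say what the letters stand for. Within a letter, the log2 difference for Jup was 0.35 in A, 0.48 in B and 0.30 in C, the last from 2 libraries of each genotype and the others from 1 of each. Pkp1 was likewise above 0 in each letter, at 0.56, 0.46 and 0.21, and Dsp at 0.33, 0.40 and 0.01. Pkp3, Ppl and Evpl were below 0 in letter A, at -0.15, -0.13 and -0.09, and above 0 in B, at 0.56, 0.42 and 0.67, and in C, at 0.44, 0.36 and 0.41. The Perp differences were 0.27, 0.11 and -0.03, and those of Pkp2 were -0.62, 1.41 and -0.91.

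Levels of different genes can be set beside each other only per length, here as CPM per kb of union exon length. On that scale Perp was the highest at 1605 ± 194 in controls and 1690 ± 146 in libraries labelled RoraEKO (SD, n = 4), and it ranked 44 of 13116 genes. Pkp1 followed at 430 ± 86.6 and 547 ± 76.4 CPM per kb, and Dsp at 250 ± 29.8 and 284 ± 28.8. Below them came Pkp3 at 169 ± 56.4 and 206 ± 41.7, Ppl at 145 ± 28.1 and 171 ± 19.5, and Jup at 135 ± 10.3 and 173 ± 24.5 CPM per kb. Evpl had 94.2 ± 8.19 and 121 ± 23.6, and Pkp2 had 0.0576 ± 0.0513 and 0.055 ± 0.0455 CPM per kb. The libraries of Perp, Pkp1 and Dsp did not overlap with one another, at 1319 to 1885, 347 to 651 and 209 to 326 CPM per kb. From Dsp down to Evpl each neighbour in the order overlapped with the next, and Pkp2, ranked 13004, was apart from them all.

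The place of Jup in that order depends on the length used. The annotation gives Jup 29 transcripts and 8884 bases of union exon but only 3302 in the canonical transcript, and with the canonical length Jup moved from place 6 to place 3, at 362 ± 27.6 and 467 ± 66 CPM per kb. The longest transcript also gave it place 3, at 289 ± 22 CPM per kb in controls. Pkp2 stayed last under all 3 lengths.

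**Figure D4:**
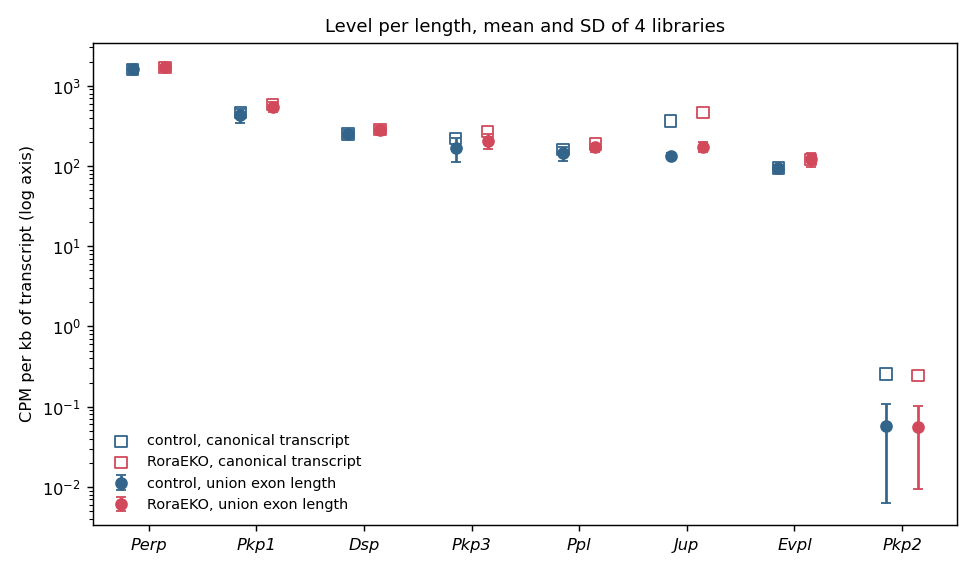
CPM per kb of transcript (log axis) for each gene in control (blue) and RoraEKO (red) libraries, as the mean and SD of 4 libraries with union exon lengths (filled points) and as the mean with canonical transcript lengths (open squares). Perp, at 1605 and 1690 CPM per kb, is the highest and Pkp2 the lowest with either length, and Jup shifts most with the length among the other genes.

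As a share of the summed level per length, Perp made up 56.6% ± 2.97 in controls and 53% ± 1.1 in libraries labelled RoraEKO, and Pkp1 15.1% ± 2.29 and 17.1% ± 0.658 (SD, n = 4). Shares within 1 sum cannot move independently. The ratio of Ppl to Evpl, whose products work as a complex, was 1.52 ± 0.188 in controls and 1.42 ± 0.127 in RoraEKO libraries. It lay between 1.24 and 1.76 in all 8 libraries and overlapped between genotypes. The ratio of Jup to Dsp was 0.546 ± 0.0868 and 0.609 ± 0.0407 with union exon lengths but 1.46 ± 0.232 and 1.63 ± 0.109 with canonical transcripts, so it does not tell which of them is higher. The ratio of Pkp1 to Pkp3 was 2.78 ± 1.03 in controls and 2.7 ± 0.336 in RoraEKO libraries. It had both its lowest and its highest value among the controls, 1.41 in A1 and 3.88 in C1.

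**Figure D5:**
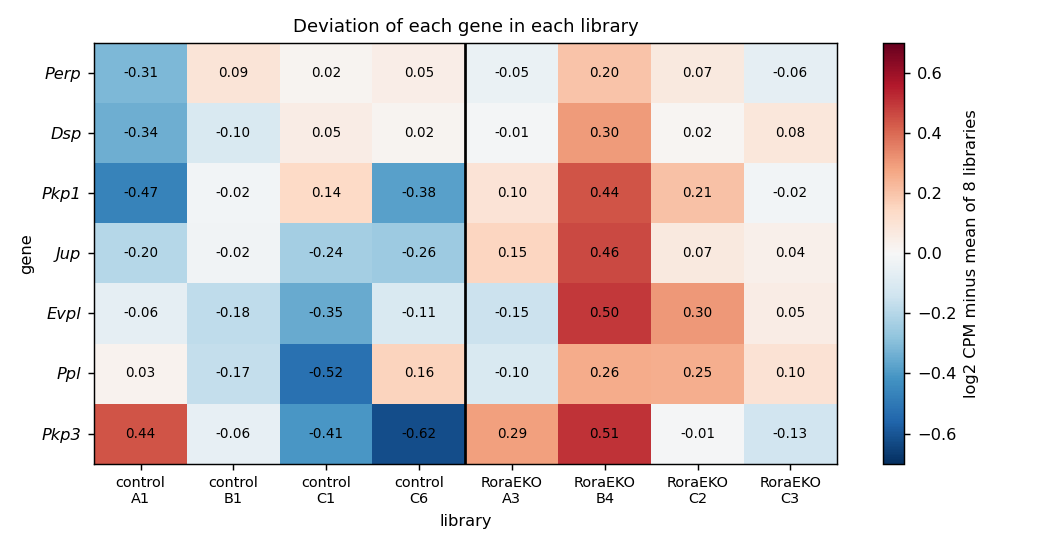
Log2 CPM of 7 genes (rows) in each library (columns, controls left of the line) minus the gene's mean over the 8 libraries, in colour and as numbers, without Pkp2, whose counts are too low. RoraEKO B4 is above the mean for all 7 genes, by 0.20 to 0.51, and control A1 is the lowest library for Perp, Dsp and Pkp1 but the second highest for Pkp3, at 0.44.

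Across the 8 libraries, the log2 CPM of some of these genes varied together. These correlations are descriptions over 8 libraries that share a scaling and a genotype contrast. Pearson's r was 0.84 between Ppl and Evpl, and 0.77 about the genotype means. For Dsp and Perp these values were 0.82 and 0.84, for Dsp and Pkp1 0.78 and 0.66, for Jup and Pkp1 0.77 and 0.56, and for Jup and Evpl 0.77 and 0.51. Pkp2, whose counts were low, was at 0.58 with Pkp3 (0.71 about the genotype means) and at 0.19 with Jup (0.47). With Dsp, Pkp1, Ppl, Evpl and Perp its values ran from -0.37 to -0.01. Leaving Pkp2 aside, values at or below 0.02 were found for Pkp3 with Dsp (-0.08, and -0.44 about the genotype means) and with Perp (-0.20 and -0.37), and for Ppl with Pkp1 (0.02 and -0.48).

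Among the 6899 other genes with a mean of at least 10 CPM, the closest patterns over the 8 libraries were those of Mlx (r = 0.99), Polr3g (0.98) and Dsg1b (0.97) for Dsp. Dsg1b encodes a desmoglein 1, and it was at 50.1 ± 13.3 and 82.5 ± 32.1 CPM (SD, n = 4), with a log2 fold change of 0.72 and an adjusted p of 0.199 (edgeR quasi-likelihood test). For Jup they included Itprip (0.96) and Srebf2 (0.95), which encodes a transcription factor of sterol metabolism. Fem1a (0.99), Pcyt2 (0.97) and Nop2 (0.97) came closest to Pkp1. Ankrd13a (0.99), Tfap2c (0.99), an AP-2 transcription factor of keratinocytes, and Arhgef4 (0.98) came closest to Pkp3. Defb1 (0.97), Ncoa2 (0.97) and Arap2 (0.94) were nearest to Ppl, and Scaf1 (0.98), Cep170b (0.98) and Epn3 (0.97) to Evpl. Pcyox1, Sel1l and Clca2 (each 0.96) were nearest to Perp. The genes nearest to Pkp2, over counts that reach 46 at most, were the hair keratin Krt40 (0.96), Il4ra (0.95) and Unc5b (0.95). With this many genes and 8 libraries, high values arise in number.

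The binding partners of the plaque were counted from lists of related genes, each read beside a median log2 fold change of -0.04 over all genes. The counts of each list are read beside the shares over all tested genes in the same test. These were 2.30% called higher, 3.22% called lower and 18.2% at an unadjusted p under 0.05. Genotypes did not overlap in 5.40% (RoraEKO higher) and 7.54% (RoraEKO lower). Of 9 desmosomal cadherins (desmogleins and desmocollins), the edgeR quasi-likelihood test called 0 (1 at an unadjusted p under 0.05, and 0 under every alternative), and the median was 0.08. Dsg1a, the most abundant, was at 932 ± 246 and 942 ± 121 CPM, and Dsc2 at 372 ± 147 and 392 ± 105 CPM (SD, n = 4). Of 14 adherens junction genes 0 were called (2 at an unadjusted p under 0.05, and 1 with DESeq2, with the title letter as a block or without control A1), with a median of 0.08. Among them Cdh1, which encodes E-cadherin, was at 436 ± 57.1 CPM in controls and 352 ± 18.5 in libraries labelled RoraEKO without overlap (log2 fold change -0.31, with an edgeR adjusted p of 0.271), and Nectin4 was at 338 ± 15.5 and 366 ± 44.5 CPM. The Cdh1 log2 fold change ran from -0.37 to -0.18 over the alternatives, and was -0.18 without the controls that express Xist. Arvcf, a p120-catenin relative named after its values were seen, had the largest difference of the list, at 71.7 ± 20.8 and 36.8 ± 12.8 CPM without overlap (log2 fold change -0.96, with an edgeR adjusted p of 0.0815), and it was the gene called in those 3 fits.

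Of 4 other plakins and plakin-like linkers, 0 were called (2 at an unadjusted p under 0.05, and 0 to 1 over the alternatives), with a median of -0.17. Plec, which encodes plectin, was at 169 ± 20.4 and 171 ± 24.1 CPM. Eppk1, which encodes epiplakin, a keratin-binding plakin, was at 82.5 ± 32 CPM in controls and 190 ± 51.6 CPM in libraries labelled RoraEKO, with no overlap (log2 fold change 1.20, with an edgeR adjusted p of 0.0654). It passed the cutoffs under 5 of 18 alternatives, among them DESeq2, the letter as a block and the fits without control A1 or RoraEKO A3. Macf1, a microtubule and actin linker named after its values were seen, lay the other way at 90.1 ± 17.5 and 65.1 ± 9.57 CPM (log2 fold change -0.47, with an edgeR adjusted p of 0.146), and it was called under none of the 18 alternatives. Over these its log2 fold change ran from -0.56 to -0.21. It was -0.26 with Xist as a covariate, -0.21 without the controls that express Xist and -0.30 without control C6. 

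Of 10 partners that are cross-linked into the envelope or that cross-link it, 1 rose and 1 fell (3 passed at an unadjusted p under 0.05), with a median of 0.14. Over the alternatives 0 to 3 were called, with 0 when Xist was a covariate. Tgm5, which encodes a transglutaminase of the upper layers, rose from 35.2 ± 6.35 to 62.4 ± 5.44 CPM (log2 fold change 0.83, with an edgeR adjusted p of 0.0098), and with Xist as a covariate the call was lost at a log2 fold change of 0.78 (adjusted p = 0.0627). The genotypes also did not overlap for Tgm1 and Tgm3, transglutaminases named after their values were seen, at log2 fold changes of 0.70 and 0.46, but neither passed (edgeR adjusted p of 0.0578 and 0.294). Tgm1 did pass under 4 of 18 alternatives, which were RLE size factors, DESeq2, the title letter as a block and the fit without control A1, and Tgm3 was at 0.20 with Xist as a covariate and 0.26 without the controls that express Xist. Hrnr, which encodes hornerin, a late granular protein, fell from 1284 ± 601 to 345 ± 132 CPM (log2 fold change -1.90, adjusted p = 0.0211). That call was lost with Xist as a covariate, without the controls that express Xist, and without control B1, RoraEKO C2 or RoraEKO C3, and over the 18 alternatives its log2 fold change ran from -2.09 to -1.47 and its adjusted p reached 0.113.

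Keratins, to which desmoplakin and other plakins attach, held the largest log2 fold change of these lists, that of Krt6b at 4.61. Of 12 tested, 3 rose and 1 fell (6 passed at an unadjusted p under 0.05, and 7 did not overlap), with a median of 0.42. Over all genes 2.30% rose, 3.22% fell and 18.2% passed unadjusted, and 5.40% and 7.54% did not overlap, with RoraEKO higher and lower. The count called ran from 2 to 6 over the alternatives, the highest with DESeq2. Krt16 rose from 155 ± 44.7 to 1523 ± 732 CPM (log2 fold change 3.29, with an edgeR adjusted p of 0.000911), a call that all 18 alternatives gave. Krt6b rose from 5.58 ± 6.21 to 137 ± 147 CPM, with an adjusted p of 0.0183. That call was lost without control B1 or C1, where the log2 fold change was still 4.36 and 4.45, and the log2 fold change itself moved most without RoraEKO B4, to 3.52, and without control C6, to 5.80, among the fits that left out 1 library. Krt6a rose from 6.94 ± 3.25 to 43.5 ± 45 CPM (log2 fold change 2.64, adjusted p = 0.044). It was not called in 10 of 18 alternatives, namely limma-voom, the title letter as a block, both settings for Xist, and the fits without control A1, B1, C1 or C6 or without RoraEKO C2 or C3, where the log2 fold change ran from 2.13 to 2.92. Without RoraEKO B4 it was 1.60 and still called. Krt6a and Krt6b are close paralogues and reads may be split between them. These 3 keratins are known for wounded and hyperproliferative epidermis. Krt77, a suprabasal keratin, fell from 449 ± 211 to 126 ± 34.6 CPM (log2 fold change -1.83, adjusted p = 0.0139). The call was lost with Xist as a covariate, without the controls that express Xist and without RoraEKO C2, where the log2 fold change was still -1.74, -1.71 and -1.64 (adjusted p = 0.0533, 0.0582 and 0.0574).

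Of 13 regulators of junction and envelope genes 0 were called (2 at an unadjusted p under 0.05, and 0 under every alternative), with a median of 0.08. Klf4, a factor needed for the skin barrier, was at 654 ± 44.2 CPM in controls and 788 ± 144 CPM in libraries labelled RoraEKO, and Grhl1, a factor that acts on desmosomal cadherin genes, at 459 ± 38.4 and 394 ± 20.3 CPM. Neither passed (adjusted p = 0.448 and 0.42, edgeR quasi-likelihood test), although the genotypes did not overlap for either.

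To show the DNA next to the start sites, the upstream bases of Jup, the gene whose genotypes did not overlap, and of Dsp, the central linker, are given from a RefSeq promoter table of GRCm38.p6, which held 2 of the 8 genes. Each run of 190 bases goes 5′ to 3′ on the strand of the gene, from base 250 to base 61 before the RefSeq start, and holds no base of an annotated exon of that gene. By exact match to GRCm39, the Jup run lies at chr11:100288677-100288866 (minus strand), inside the gene, because the RefSeq start is 2487 bases downstream of the first start in GENCODE, and the Dsp run at chr13:38335020-38335209 (plus strand).
Jup: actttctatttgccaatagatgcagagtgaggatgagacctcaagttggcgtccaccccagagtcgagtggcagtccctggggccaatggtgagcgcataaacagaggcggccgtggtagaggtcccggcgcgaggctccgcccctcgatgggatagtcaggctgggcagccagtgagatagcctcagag
Dsp: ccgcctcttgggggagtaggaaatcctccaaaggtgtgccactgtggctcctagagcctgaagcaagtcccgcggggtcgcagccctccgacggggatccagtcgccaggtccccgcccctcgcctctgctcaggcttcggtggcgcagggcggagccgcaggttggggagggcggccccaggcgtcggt
The run of Jup holds 60% G and C and that of Dsp 70.5%. The 250 bases before each start were searched on both strands for AGGTCA, the core of the ROR response element, for TGANTCA, the AP-1 motif, and for AACNNGTT, a Grainyhead motif. None of the 3 was found in either gene, so no base is in capitals, whereas 14%, 6.75% and 3.64% of 32851 promoters in the table held them. This says only that those letters are not in these windows.

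Overlapping and similar genes were also checked. Dsp, Jup and Pkp1 overlap annotated genes whose counts reached 11, 0 and 6 in any library, and whether the counting used strand is not given in the sources used here. Pkp2 and Pkp3 overlap antisense noncoding genes, Gm60495 over 6663 bases and Gm72182 over 504, for which no counts were used here, so reads of these could not be told apart from those of the low Pkp2 count if strand was not used. Transcripts of Jup share a stretch of at least 50 bases at 98% identity or more with 6 other genes, the longest 121 bases with Ube2e1, and those of Ppl with 1, Chek2, over 54 bases. For the other genes no such stretch was found.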

How the data were processed

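Libraries were made from P4 mouse epidermis with polyA-selected TruSeq stranded kits, 4 per genotype. Per the labels and the study's methods, the authors used Skewer for trimming and STAR 2.5.3a for alignment (GRCm39), and deposited RSEM expected counts per Ensembl gene, not normalized (base calls by bcl2fastq 2.20.0.422). Expected counts split reads that fit several genes, and they were rounded here. Symbols and positions came from GENCODE mouse release 39 (54749 of 55416 identifiers matched), and promoter sequences from RefSeq.

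Counts were filtered with filterByExpr (13147 genes kept), TMM-scaled and put through edgeR 4.0.16 (R 4.3.3; quasi-likelihood test, legacy form), with no covariate, in all 8 libraries. Adjustment was by Benjamini-Hochberg over all tested genes, and calls needed an adjusted p under 0.05 and a fold change over 1.5. SEs are those of the difference in mean log2 CPM (prior count 2), and 95% intervals are from limma-voom 3.58.1. The floor of 3 counts covers counting error only. The genes, the lists and the naming rule (all 8 genes and Rora, from each list the genes called or, below 2, the 2 most abundant, and the 3 genes most correlated with each member by log2 CPM) were chosen with earlier results of these data known. One of the genes that the rule gives for Jup is not reported here. Dsg1b, Krt1, Krt5, Krt10, Krt14, Krt15, Col17a1, Itga6, Itgb4, Krtdap, Sbsn, Dmkn, Ddx3y and Xist are given beside values they touch. Libraries are separate samples, but nothing states separate litters, so p-values measure the spread between these samples. Alternatives were RLE or no composition factors, DESeq2 1.42.0, limma-voom, the edgeR 4 form, other count filters, the title letter as a block, Xist as a covariate, the controls that express Xist left out, each library left out, and other gene lengths, of which the canonical transcript was added after seeing the data. Shared stretches were sought with BLAST 2.17.0. On simulated data for this comparison (13239 genes tested), 89.5% of genes changed by a log2 fold change of 2 were called, and 45.9% of those changed by 1.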

Additional observations from a re-analysis of the deposited data

Results flagged for a closer look

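Pkp2 in control A1 stood apart from the other controls, at 1.75 CPM (46 counts) against 0.437, 0.331 and 0.488 CPM in B1, C1 and C6. Its gap to the nearest control was 0.89 of the range of the 4, over the 95% limit of Dixon's test for 4 samples. Of 16 groups examined, 8 genes in 2 genotypes, this was the only such value, and chance gives about 1 in 20. Control A1 also had the highest summed level of hair follicle markers, 32464 CPM, and its part in the Pkp2 value was not tested.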

How the results depend on the processing

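The count of 0 of the 8 genes called in either direction held under all 18 alternatives. Of the log2 fold changes of the 8 genes, 137 values kept their direction and 4 reversed, namely Pkp2 without RoraEKO C2 (0.38) or C3 (0.11), Pkp3 with Xist as a covariate (-0.03) and Perp without control A1 (-0.01). With a library left out, Pkp2 ran from -0.33 to 0.38 and Perp from -0.01 to 0.16. Pkp2 did not pass the filter in 3 alternatives. The count of genes whose genotypes did not overlap, 1, became 0 with library size alone, 3 without the controls that express Xist, and 1 to 4 with a library left out (2 without RoraEKO C2, 4 without A3). Over all genes, 302 were called higher, against 478 with DESeq2, 174 with Xist as a covariate, 147 without the controls that express Xist and 174 to 383 with a library left out (lowest without control B1, and 188 without RoraEKO C3). The 423 called lower became 167 without the controls that express Xist, 553 with DESeq2 and 283 to 513 with a library left out. Dsg1a reversed with library size alone (-0.03), and with a library left out ran from -0.16 to 0.15. Dsc2 reversed with library size alone (-0.01), with Xist as a covariate (-0.30), without the controls that express Xist (-0.25), and with a library left out ran from -0.08 to 0.35. Plec reversed with library size alone (-0.04), and with a library left out ran from -0.05 to 0.12. The cause was not tested for any of these. With the title letter as a block, 0 of the 8 genes were called, and 420 of all genes were called higher and 579 lower. Same-letter libraries of opposite genotype correlated in their deviations at 0.48 for A, 0.05 for B and 0.13 to 0.44 for C. Pairs of different letters ran from -0.52 to 0.28. Libraries of a letter thus shared some of their deviations in A and C, and hardly any in B. The labels do not say what the letters stand for, so pairing by letter is not established. No paired analysis by replicate number was possible because the genotypes share no numbered pairs in the labels. Depth limits only Pkp2, with 1 to 46 counts.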
